A study of Mus musculus with 76 samples.

Results

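The triglyceride lipolysis and lipid droplet genes described here are *Pnpla2*, *G0s2*, *Abhd5*, *Lipe*, *Mgll*, *Plin1*, *Plin2*, *Plin4* and *Cidec*, found by their symbols in the count tables of visceral white adipose tissue (WAT) and liver. All 9 had a row among the 18964 entries of the WAT table. The liver table listed 8 of the 9 among 16775 entries and held no row for *Plin1*. The samples came from female mice with free access to food and drink, and the mice were homozygous either for the wild-type allele of *Fnip2* (Fnip2T/T) or for an allele made with Cas9 in C57BL/6 embryos (Fnip2C/C). The Fnip2C/C allele carries a T-to-C change in the 3′UTR and a neighbouring G-to-C change that removes the PAM, so the effects of these changes cannot be told apart. WAT came from 4 Fnip2C/C mice (590, 593, 599 and 638) and 5 Fnip2T/T mice (607, 608, 609, 657 and 658). Liver came from 5 Fnip2C/C mice (590, 591, 592, 638 and 639) and 5 Fnip2T/T mice (607, 608, 657, 658 and 659). Both tissues were available from 6 mice. The age of the mice and the number of founders behind the line were not given in the sources used here.

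Fat cells store triglyceride in lipid droplets and release it as fatty acids and glycerol by lipolysis. The lipase ATGL (*Pnpla2*) removes the first fatty acid, hormone-sensitive lipase (*Lipe*) the next and monoglyceride lipase (*Mgll*) the last. ATGL needs the co-activator CGI-58 (*Abhd5*) and is inhibited by the G0/G1 switch protein (*G0s2*). Perilipin 1 (*Plin1*) coats the droplets of fat cells and holds CGI-58 until the cell is stimulated, perilipin 2 (*Plin2*) coats droplets in most cell types, perilipin 4 (*Plin4*) is found on small droplets of fat cells, and CIDEC (*Cidec*) supports the fusion and growth of droplets. FNIP2 is a partner of folliculin, which acts upstream of transcription factors of the TFE/MITF family. These factors bind the letters CACGTG and related motifs.

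The promoters of the 9 genes were searched for these letters, since folliculin acts on factors that bind them, and all 9 symbols were found in the RefSeq promoter table (GRCm38.p6, 250 bases before to 50 bases after each start). CACGTG, which reads the same on both strands, was present in a promoter of 3 of the 9 genes, *Plin2*, *Mgll* and *Lipe*, and in 7.15% of all 32851 promoters or 8.09% of the 27025 genes in that table. The stretches of 30 bases that hold it are given here, 5′ to 3′ on the strand of the gene, with the motif in capitals.
*Plin2* (GRCm38.p6, chr4:86670046-86670075, minus strand): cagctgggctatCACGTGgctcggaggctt
*Mgll* (GRCm38.p6, chr6:88724356-88724385, plus strand): gggggccgggcaCACGTGgggccccggcgc
*Lipe* (GRCm38.p6, chr7:25396125-25396154, minus strand): aacagggacgacCACGTGagggggcggagg
The motif began 4 bases before the start of *Plin2*, 44 bases before that of *Mgll* and 155 bases before 1 of the starts of *Lipe*. AGGTCA, the nuclear receptor half-site, was found on either strand in promoters of *Abhd5* and *Plin2* and in 16.3% of all promoters. The direct repeat bound by PPAR receptors, AGGTCANAGGTCA, was found on either strand in none of the 9 genes and in 0.0396% of all promoters. At so low a share, its absence from the 9 genes does not bear on their control by these receptors. A match is a run of letters in this window and not a bound site.

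The libraries read the 3′ ends of poly(A) transcripts, and the recovered reads per library ranged from 4180209 to 6277644 in WAT and from 5583041 to 7523200 in liver. In liver, no gene was called, and in WAT 4111 of 12798 genes tested were called (32.1%) at a limma adjusted p under 0.05, 2181 lower and 1930 higher in Fnip2C/C. On the recovered reads, edgeR called 4144 genes in WAT and DESeq2 4722. *Fnip2* itself had a normalized count of 14.1 to 30.9 in the Fnip2C/C and of 14.5 to 42.6 in the Fnip2T/T WAT libraries (log2 fold change -0.27, limma adjusted p = 0.58). In liver, *Fnip2* ranged from 133 to 197 and from 49.2 to 134 (log2 fold change 0.63, SE 0.23, limma adjusted p = 1.00). Before adjustment, limma gave p = 0.0148 for liver *Fnip2*, and its exact permutation test gave p = 0.0159. The groups overlapped, and 231 liver genes had an unadjusted limma p under 0.05. The tables do not read the edited base. All 9 adipocyte markers were listed in WAT, where their summed normalized count was between 123207 and 348821 in Fnip2C/C and between 261483 and 465263 in Fnip2T/T. Of these markers, 4 were called lower in Fnip2C/C (*Adipoq*, *Lep*, *Retn* and *Fabp4*) and 0 higher, beside 17.0% called lower over all genes tested. The others were not called. *Cfd* and *Acsl1* had positive log2 fold changes (0.52 and 0.48), and *Slc2a4*, *Adrb3* and *Car3* negative ones (-0.44, -0.34 and -0.94). *Cfd* and *Car3*, with opposite signs, had the highest counts in the sum. The WAT library of the Fnip2C/C mouse 593 stood apart, with a summed normalized count of 19459 over the 7 listed ovary genes, against 27.9 to 80.8 in the other WAT libraries, and with the lowest adipocyte sum. The summed haemoglobin genes ranged from 2976 to 4225 in Fnip2C/C WAT and from 10229 to 13657 in Fnip2T/T WAT. Genes whose symbols begin with Snor, which belong to small nucleolar RNAs, took 0.0276% to 0.154% of the reads in Fnip2C/C WAT and 0.00949% to 0.0196% in Fnip2T/T WAT. The part of these differences in the results for the lipolysis genes was not tested.

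**Figure D1:**
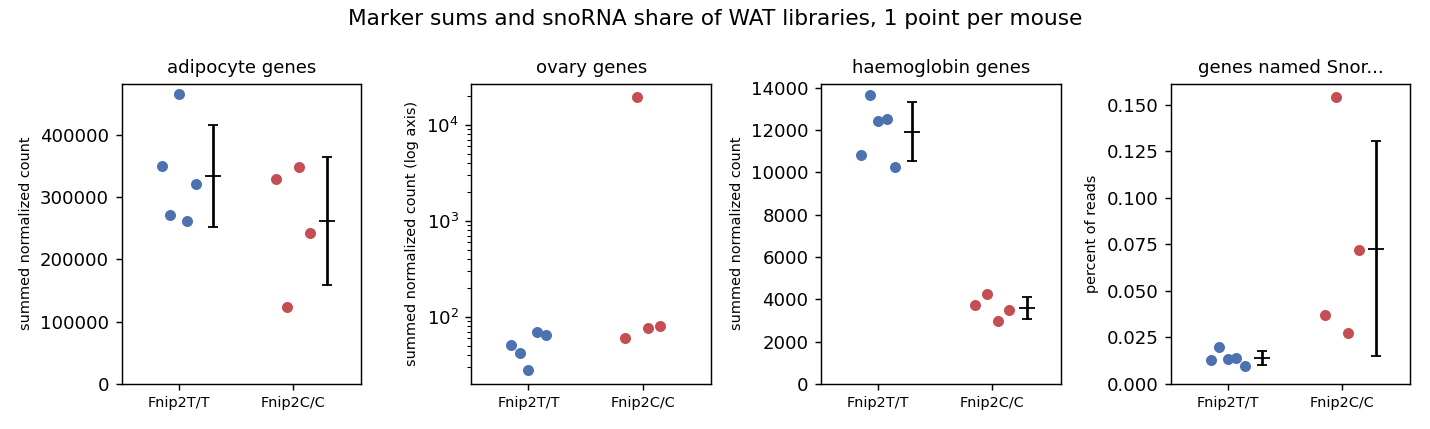
Marker sums in WAT. Each point is 1 mouse, and the y axes give the summed normalized count of the adipocyte, ovary (log axis) and haemoglobin genes and the percent of reads in genes named Snor. Bars, where drawn, are mean ± SD. The ovary sum of mouse 593 is 19459, and the haemoglobin sums of the genotypes do not overlap.

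In WAT, 4 of the 9 genes were lower in Fnip2C/C mice and 0 were higher. The 4 were the lipase genes *Pnpla2* and *Lipe*, the inhibitor gene *G0s2* and the droplet coat gene *Plin1*. The share of all genes tested that was called lower was 17.0%. The median log2 fold change of the 9 genes (Fnip2C/C minus Fnip2T/T) was -0.52, against 0.02 over all genes tested. *Abhd5*, *Mgll*, *Plin2*, *Plin4* and *Cidec* did not pass the threshold. In bulk tissue, fewer fat cells and less RNA of a gene per fat cell cannot be told apart.

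*Pnpla2*, which encodes the lipase of the first step, had normalized counts of 2740, 825, 2108 and 1434 in the WAT of Fnip2C/C mice 590, 593, 599 and 638. In the Fnip2T/T mice 607, 608, 609, 657 and 658, the normalized counts were 6018, 4811, 7114, 5634 and 5283. The highest Fnip2C/C library lay below the lowest Fnip2T/T library, as was the case for 26.1% of all genes tested in 1 direction or the other. The mean normalized count was 1777 ± 829 (SD, n = 4) against 5772 ± 872 (SD, n = 5), 3.25-fold lower in Fnip2C/C, with a log2 fold change of -1.82 (SE 0.30, limma adjusted p = 0.00137). The exact permutation test of *Pnpla2* alone gave p = 0.00794 (two-sided), the smallest p that 126 groupings can give. Without mouse 593, the log2 fold change was -1.50 (limma adjusted p = 0.00222).

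*G0s2*, whose product inhibits ATGL, had 8, 3, 10 and 9 reads in the 4 Fnip2C/C libraries, given in the same order of mice. The Fnip2T/T libraries held 473, 67, 27, 240 and 925 reads. The lowest Fnip2C/C library had 3 reads (exact Poisson 95% interval 0.619 to 8.77, counting error only), and none was at 0. As normalized counts, the Fnip2C/C libraries held 9.41, 2.81, 10.8 and 10.5, and the Fnip2T/T libraries 388, 65.2, 30.1, 238 and 701. The groups did not overlap, and the Fnip2T/T mice differed among themselves, with a coefficient of variation of 96.1%. The mean was 8.40 ± 3.78 (SD, n = 4) against 284 ± 273 (SD, n = 5), and the log2 fold change was -4.29 (SE 0.82, limma adjusted p = 0.00375). The exact permutation p was 0.0159 (two-sided). The fold depended on the pseudocount, with a log2 value of -4.39 at 0.5 and of -3.35 at 10. Over 21 alternatives, the log2 values ranged from -5.13 (edgeR on the recovered reads) to -3.35 (pseudocount of 10), with the call kept in each. Without mouse 593, the log2 fold change was -3.90 (limma adjusted p = 0.0178).

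*Plin1*, which encodes the main droplet coat protein of fat cells, had normalized counts of 1749, 472, 1809 and 1229 in Fnip2C/C mice. The Fnip2T/T libraries held 4253, 2847, 4016, 3751 and 3528, and no library of the groups overlapped. The mean was 1315 ± 619 (SD, n = 4) against 3679 ± 540 (SD, n = 5), 2.80-fold lower in Fnip2C/C, with a log2 fold change of -1.65 (SE 0.34, limma adjusted p = 0.00385; p = 0.00794 in the two-sided exact permutation test). Without mouse 593, the value was -1.21 (limma adjusted p = 0.00311).

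*Lipe*, which encodes hormone-sensitive lipase, had normalized counts of 7754, 2707, 5157 and 1819 in Fnip2C/C mice and of 7633, 8763, 8993, 8234 and 7061 in Fnip2T/T mice. The groups overlapped through mouse 590, whose value lay above those of mice 607 and 658. The log2 fold change was -1.11 (SE 0.35, limma adjusted p = 0.0284; p = 0.0238 in the two-sided exact permutation test). The spread was wider in Fnip2C/C, with a coefficient of variation of 61.2% against 9.80%. The call was lost with edgeR's quasi-likelihood test on the recovered reads (log2 fold change -0.92, adjusted p = 0.065) and without mouse 593 (-0.96, limma adjusted p = 0.0692), 608 (-1.08, adjusted p = 0.0534), 638 (-0.77, adjusted p = 0.0873) or 657 (-1.11, adjusted p = 0.0554). Scaling to equal adipocyte markers also ended the call (-0.41, limma adjusted p = 0.349), as did leaving out mice 593 and 657 together.

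**Figure D2:**
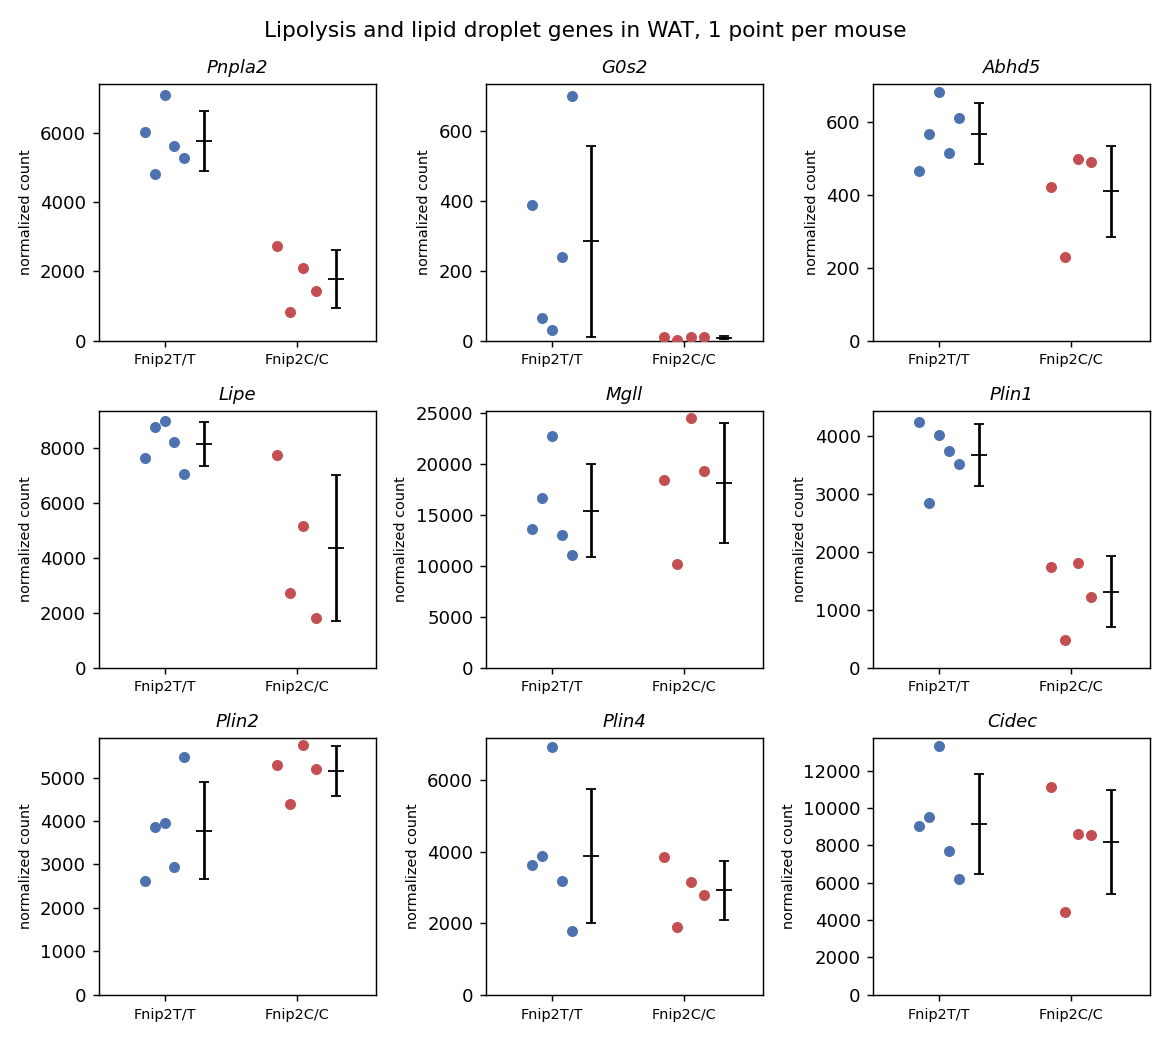
Normalized counts of the 9 genes in WAT. Each panel is 1 gene, each point 1 mouse, and the bar beside the points is the mean ± SD. The Fnip2C/C points of *Pnpla2*, *G0s2* and *Plin1* all lie below the Fnip2T/T points, whereas those of *Mgll*, *Plin2*, *Plin4* and *Cidec* overlap with them.

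The remaining genes stayed above the threshold in WAT. *Abhd5*, which encodes the ATGL co-activator, had normalized counts of 422, 228, 498 and 488 in Fnip2C/C and of 465, 565, 682, 515 and 609 in Fnip2T/T. Its log2 fold change was -0.52 (SE 0.23, 95% interval -1.03 to -0.02, limma adjusted p = 0.102). *Mgll*, the gene of the last lipase, had 18391, 10214, 24482 and 19325 normalized counts in Fnip2C/C and 13617, 16626, 22729, 13053 and 11012 in Fnip2T/T. The log2 fold change of *Mgll* was 0.21 (SE 0.30, 95% interval -0.43 to 0.85, limma adjusted p = 0.613).

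*Plin2*, the coat protein gene shared by most cell types, had normalized counts of 5300, 4384, 5754 and 5188 in Fnip2C/C and of 2627, 3870, 3961, 2934 and 5482 in Fnip2T/T. All 4 Fnip2C/C libraries lay above 4 of the 5 Fnip2T/T libraries, and mouse 658 was the exception. The log2 fold change was 0.49 (SE 0.23, 95% interval -0.01 to 1.00, limma adjusted p = 0.124; p = 0.0556 in the two-sided exact permutation test). *Plin4* ranged from 1885 to 3852 in Fnip2C/C and from 1786 to 6926 in Fnip2T/T, with a log2 fold change of -0.32 (SE 0.34, limma adjusted p = 0.479). *Cidec* ranged from 4428 to 11132 and from 6183 to 13304, with a log2 fold change of -0.19 (SE 0.30, 95% interval -0.83 to 0.45, limma adjusted p = 0.65). *Abhd5*, *Plin4* and *Cidec* turned to positive values when libraries were scaled to equal adipocyte markers, a scaling that moved the median log2 fold change of all genes tested from 0.02 to 0.71 and the calls to 480 lower and 4152 higher.

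Ratios of reads within a library do not depend on how libraries are scaled to each other. They compare libraries and not the amounts of the genes, since 3′ end reads of different genes can be captured unequally. For every *Plin1* read, the Fnip2C/C WAT libraries held 3.03, 9.29, 3.18 and 4.22 *Plin2* reads. The Fnip2T/T libraries held 0.618, 1.36, 0.986, 0.782 and 1.55, so the ranges did not overlap. *Plin2* reads per *Pnpla2* read ranged from 1.93 to 5.31 in Fnip2C/C and from 0.436 to 1.04 in Fnip2T/T. *Abhd5* reads per 1000 *Pnpla2* reads, the co-activator against its lipase, ranged from 154 to 341 in Fnip2C/C and from 77.3 to 117 in Fnip2T/T. *G0s2* reads per 1000 *Pnpla2* reads, the inhibitor against its lipase, were 3.43, 3.40, 5.14 and 7.35 in Fnip2C/C and 64.5, 13.5, 4.24, 42.2 and 133 in Fnip2T/T. Mouse 609 placed the Fnip2T/T range over that of Fnip2C/C for this ratio. *Mgll* reads per *Lipe* read ranged from 2.37 to 10.6 and from 1.56 to 2.53, and these ranges also overlapped. The ratios were chosen after the values were seen and were not tested. *Plin1* and *Pnpla2* were themselves lower in Fnip2C/C without overlap, so higher ratios to them in part repeat those differences.

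**Figure D3:**
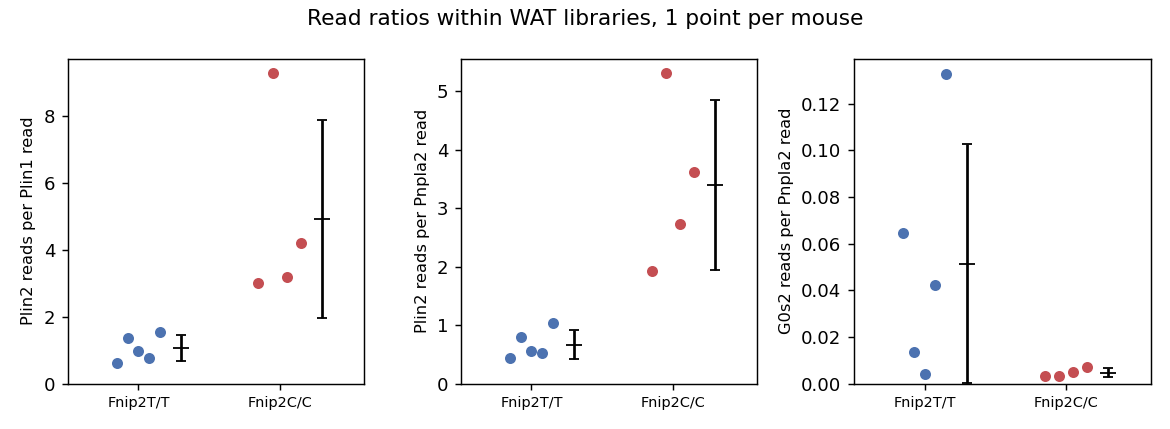
Read ratios within WAT libraries. Each point is 1 mouse, the y axes give the reads of the first gene per read of the second, and the bar is the mean ± SD. *Plin2* per *Plin1* and *Plin2* per *Pnpla2* separate the genotypes, and *G0s2* per *Pnpla2* overlaps through mouse 609 at 0.00424. The counts of *Plin1* and *Pnpla2* were themselves lower in Fnip2C/C.

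In liver, none of the 7 genes tested was called, against 0.0% of all 11710 genes tested with limma. Of these 11710 genes, 231 had an unadjusted p under 0.05, and edgeR and DESeq2 on the recovered reads called 0. The adjusted p of each of the 7 genes was 1.00 with limma, and the groups overlapped for all 7, as they did for all but 0.248% of the genes tested. *Pnpla2* had normalized counts of 312, 298, 441, 352 and 396 in Fnip2C/C mice 590, 591, 592, 638 and 639 and of 284, 383, 383, 265 and 281 in Fnip2T/T mice 607, 608, 657, 658 and 659, with a log2 fold change of 0.18 (SE 0.15, 95% interval -0.13 to 0.48).

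*G0s2* had the largest liver difference of the 7 in size. Its normalized counts were 120, 157, 393, 194 and 67.6 in Fnip2C/C and 271, 385, 315, 404 and 174 in Fnip2T/T. The log2 fold change was -0.91 (SE 0.45, 95% interval -1.93 to 0.11; p = 0.0952 in the two-sided exact permutation test), and the groups overlapped through mice 592, 638 and 659. *Abhd5* ranged from 118 to 162 in Fnip2C/C and from 148 to 171 in Fnip2T/T, with a log2 fold change of -0.12 (SE 0.13). *Lipe* ranged from 84.8 to 152 and from 80.3 to 132, with a log2 fold change of 0.05 (SE 0.17). *Mgll* ranged from 1412 to 1818 and from 834 to 2178, with a log2 fold change of 0.05 (SE 0.20).

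*Plin2*, the coat protein gene shared by most cell types, ranged from 1459 to 3085 in Fnip2C/C and from 1794 to 4851 in Fnip2T/T, with a log2 fold change of -0.30 (SE 0.27, 95% interval -0.89 to 0.29). *Plin4* was sparse, at 9.12 to 22.6 and 2.83 to 76.8 normalized counts, and its log2 fold change of -0.01 had an SE of 0.69. The Fnip2T/T livers differed among themselves, with a coefficient of variation of 125%. *Cidec* was at 0 to 9.05 normalized counts, or 13 reads over the 5 Fnip2C/C livers and 13 over the 5 Fnip2T/T livers, and fell below the minimum mean of 10, so that it was not tested. The 2 Fnip2C/C livers at 0 reads allow up to 3.69 reads each (exact Poisson 95% interval, counting error only).

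**Figure D4:**
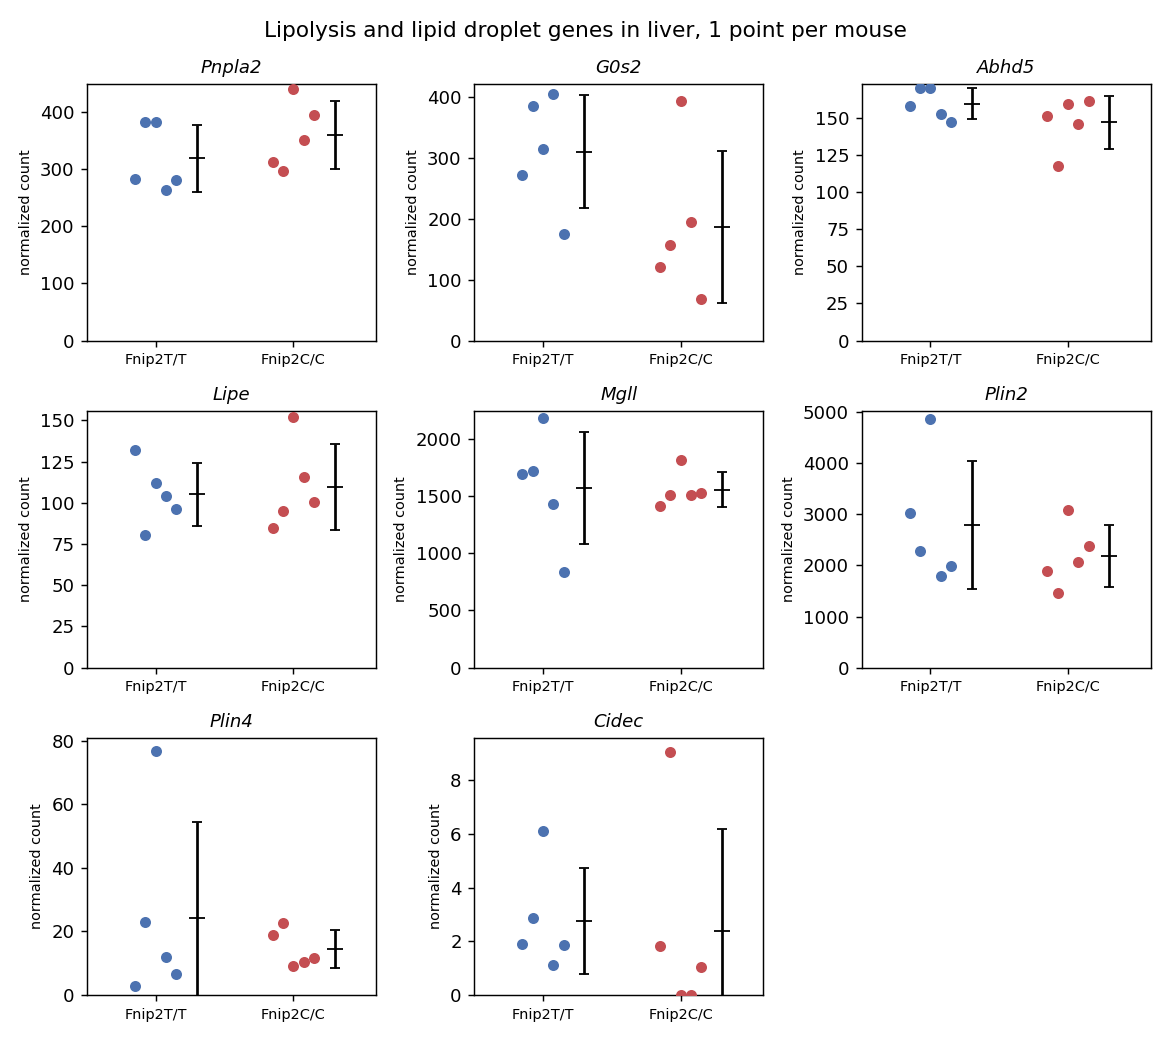
Normalized counts of the 8 genes listed in liver. Each panel is 1 gene, each point 1 mouse, and the bar is the mean ± SD. The genotypes overlap in every panel, *Cidec* stays below 10, and the highest *Plin4* value of 76.8 is that of mouse 657.

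The genotype difference was compared between the tissues as an interaction over the 10404 genes tested in both, of which 29.2% passed the threshold. *Pnpla2*, *G0s2* and *Lipe* passed, and *Abhd5*, *Mgll*, *Plin2* and *Plin4* did not, whereas *Plin1* and *Cidec* could not be compared. For *Pnpla2*, the difference in WAT minus that in liver was -2.00 on the log2 scale (SE 0.33, limma adjusted p = 0.000249). For *G0s2*, it was -3.38 (SE 1.00, limma adjusted p = 0.0186). For *Lipe*, it was -1.16 (SE 0.39, limma adjusted p = 0.0305), and this call was lost with edgeR (-0.95, adjusted p = 0.0704), DESeq2 (-0.91, adjusted p = 0.0655) and scaling to equal adipocyte or hepatocyte markers (-0.51, limma adjusted p = 0.295). It was also lost with limma without mouse 592 (-1.04), 593 (-1.01), 608 (-1.04), 638 (-0.79) or 657 (-1.19), at adjusted p-values of 0.0566 to 0.107. For *Plin2*, the estimates had opposite signs in the tissues and the difference was 0.79 (SE 0.36, limma adjusted p = 0.103), which passed without mouse 658 (1.07, adjusted p = 0.0332) and after scaling to equal adipocyte or hepatocyte markers (1.44, adjusted p = 0.0129). Without mice 593 and 657 together, *Pnpla2* was the 1 gene that passed, and *G0s2* had an adjusted p of 0.0737 with limma. Both tables were normalized separately, so levels were not tested across them.

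**Figure D5:**
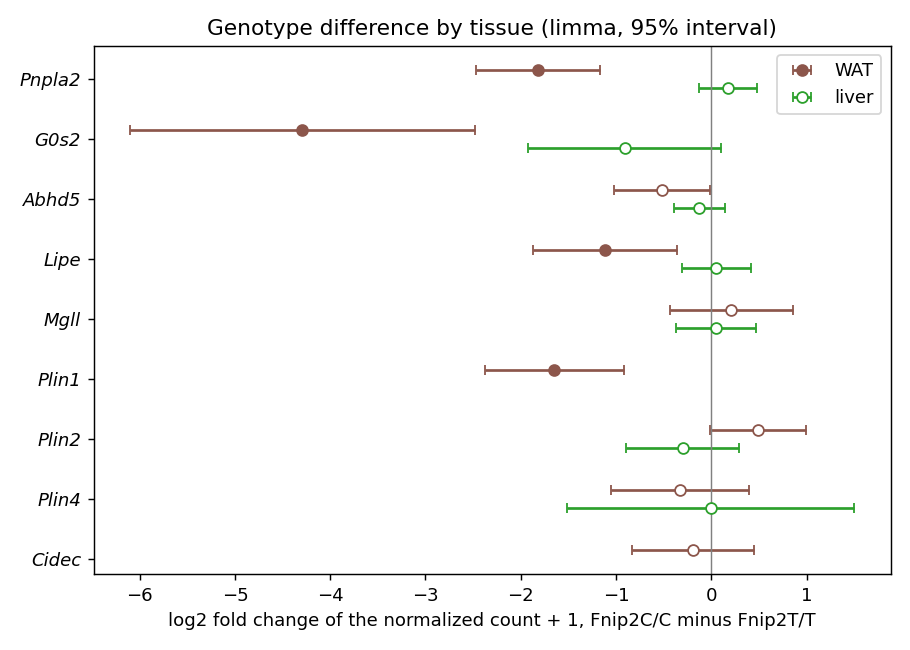
Genotype difference of each gene by tissue. The x axis is the log2 fold change of the normalized count plus 1 (Fnip2C/C minus Fnip2T/T), bars are 95% intervals from limma, and filled points passed the threshold. *Pnpla2*, *G0s2*, *Lipe* and *Plin1* lie below 0 in WAT, and the liver intervals all include 0.

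Levels in the tissues can be set side by side as shares of the reads of each library in the 6 mice with both, as a description. *Pnpla2* was 17.8 to 36.5 times as high in WAT as in liver in the 4 Fnip2T/T mice, and 5.83 and 11.3 times as high in the 2 Fnip2C/C mice. *G0s2* was 0.239 to 2.49 times the liver level in Fnip2T/T mice and 0.0775 and 0.101 times in Fnip2C/C mice. *Lipe* was 97.2 to 154 times as high in WAT in Fnip2T/T mice and 22.5 and 118 times in Fnip2C/C mice. *Abhd5* was 4.70 to 5.73 times as high in Fnip2T/T and 3.59 and 4.79 times in Fnip2C/C mice, and *Mgll* 9.49 to 13.9 and 16.8 to 18.3 times. *Plin2* had a ratio of 0.957 to 4.39 in Fnip2T/T mice and of 3.59 and 3.62 in Fnip2C/C mice.

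Other genes of the pathway were taken from 5 lists. In WAT, 9 of 40 tested were lower in Fnip2C/C and 3 were higher, against 17.0% of all genes tested called lower and 32.1% called in either direction, so the 12 calls lay near the background. Their median log2 fold change was -0.13. In liver, 0 of 42 were called with limma, edgeR or DESeq2, and 1, *Tmem159*, had an unadjusted p under 0.05 with limma. After scaling to equal adipocyte markers in WAT, which shifts all genes upward, the values of *Plin3*, *Rab18*, *Npr1*, *Ces1f*, *Cebpa* and *Foxo1* were positive, at 0.12, 0.02, 0.14, 0.26, 0.14 and 0.30 on the log2 scale.

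Among the signals to lipolysis and the export of its products, 4 of 8 genes tested in WAT were lower and 0 higher, beside 17.0% lower over all genes. *Prkaca*, the catalytic subunit of the protein kinase A that phosphorylates perilipin 1 and hormone-sensitive lipase, fell from 464 ± 129 (SD, n = 5) in Fnip2T/T to 82.8 ± 48.2 (SD, n = 4) normalized counts in Fnip2C/C, a log2 fold change of -2.65 (SE 0.38, limma adjusted p = 0.000922). *Aqp7*, the glycerol channel of fat cells, fell with a log2 fold change of -1.80 (SE 0.41, limma adjusted p = 0.00664). *Fabp4*, a carrier of fatty acids that is also 1 of the 9 adipocyte markers, had a log2 fold change of -1.09 (limma adjusted p = 0.0289). Its call was kept in 14 of 21 alternatives and lost without mouse 593 (-0.75, limma adjusted p = 0.0692), 599, 607, 657 or 658. Scaling to equal adipocyte markers (-0.39) and leaving out mice 593 and 657 together also ended the call of *Fabp4*. *Npr1*, the receptor for natriuretic peptides, had -0.56 (limma adjusted p = 0.0416), and its call was kept in 11 of 21 alternatives and lost without mouse 599, 607, 608, 638, 657 or 658, with values between -0.67 and -0.46 over single mice left out.

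Of the other lipases and lipase inhibitors, 1 of 7 tested was lower and 1 was higher, near the 32.1% called over all genes. *Hilpda*, an inhibitor of ATGL like *G0s2*, ranged from 7.03 to 16.5 normalized counts in Fnip2C/C and from 37.7 to 63.6 in Fnip2T/T, with a log2 fold change of -1.98 (SE 0.30, limma adjusted p = 0.00102). *Lipa*, the acid lipase of lysosomes, rose by 0.85 on the log2 scale (SE 0.23, limma adjusted p = 0.0139). The carboxylesterase genes *Ces1d* (-0.99) and *Ces1f* (-0.45) did not pass.

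Of the other perilipins and CIDE proteins, 1 of 3 tested was lower and 1 higher, beside 32.1% called over all genes. *Plin5*, the perilipin of tissues that oxidise fat, had normalized counts of 111, 582, 94.3 and 464 in Fnip2C/C and of 47.6, 60.3, 78.1, 43.6 and 105 in Fnip2T/T. Mice 593 and 638 were high, and the groups overlapped through mice 599 and 658. Mouse 638 also had the highest sum of the brown adipocyte markers, 10345 against 531 to 1001 in the other Fnip2C/C and 528 to 4124 in the Fnip2T/T WAT libraries, and mouse 593 the high ovary sum, and their part in the *Plin5* values was not tested. The log2 fold change of *Plin5* was 1.85 (SE 0.51, limma adjusted p = 0.0178). Its call was lost without mouse 638 (limma adjusted p = 0.0705) and without mice 593 and 657 together. Without mouse 593 it was 1.40 (limma adjusted p = 0.0473). *Plin3*, which coats small droplets in most cells, had a log2 fold change of -0.58 (limma adjusted p = 0.0289), and 14 of 21 alternatives kept the call. It was lost without mouse 599, 607, 638, 657 or 658, with values between -0.67 and -0.51 over single mice left out. *Cidea*, which is also a marker of brown fat cells, had 0.69 (SE 1.00, limma adjusted p = 0.628).

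Of the genes of droplet formation and the droplet surface, 3 of 16 tested were lower and 1 was higher, near the 17.0% lower and 32.1% called over all genes. *Rab18*, a small GTPase on droplets, had a log2 fold change of -0.69 (SE 0.17, limma adjusted p = 0.0104). *Mettl7a1* (-1.33), *Mettl7b* (-1.31) and *Fitm2* (0.67), a gene of droplet budding, passed with limma adjusted p-values of 0.0325, 0.0366 and 0.0497, and the alternatives kept these calls in 13 of 21, 8 of 20 and 11 of 21 fits. Leaving out mouse 593 gave *Mettl7a1* -0.95 (limma adjusted p = 0.0851) and *Mettl7b* -1.18 (limma adjusted p = 0.0776). Over single mice left out, the values ranged from -1.59 to -0.95 for *Mettl7a1* (call lost without 593, 599, 607, 638, 657 or 658), from -1.82 to -1.10 for *Mettl7b* (590, 593, 607, 608, 609 or 638) and from 0.52 to 0.91 for *Fitm2* (590, 599, 607, 608, 638, 657 or 658). Of the transcription factors of these genes, 0 of 6 were called with limma and 0 had an unadjusted p under 0.05, whereas DESeq2 called *Irf4* and *Ppara*. The lowest p-values were those of *Irf4* (-1.25), *Ppara* (0.94), *Cebpa* (-0.57) and *Foxo1* (-0.40), each a log2 fold change, and *Foxo1* was called without mouse 593 (-0.67, limma adjusted p = 0.0147).

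The genes whose log2 values were most like those of each gene over the 9 WAT libraries were ranked by Pearson correlation among 12797 others. These libraries include both genotypes, so a shared genotype difference raises the correlation. *Pnpla2* was closest to *Plaat3* (r = 0.994), *Nfix* (0.992) and *Gm29216* (0.989), and *Plin1* was at rank 9 (r = 0.978). *Plin1* was closest to *Sacm1l* (0.997), *Sult1a1* (0.983) and *Blcap* (0.983), with *Pnpla2* at rank 6. *G0s2* was closest to *Pabpn1* (0.997), *Rfesd* (0.996) and *Actn4* (0.994). *Lipe* was closest to *Fam222b* (0.981), *Kpnb1* (0.980) and *H4c8* (0.978), and *Abhd5* to *Gnai1* (0.962), *S100a13* (0.951) and *Poln* (0.945). *Mgll* was closest to *Cdk11b* (0.982), *Slc25a25* (0.962) and *Apol6* (0.961), *Plin2* to *Mrpl12* (0.956), *Ndufa11* (0.944) and *Tecr* (0.943), *Plin4* to *Sh3bgrl* (0.939), *Slc6a13* (0.928) and *Gm26797* (0.926), and *Cidec* to *Celf2* (0.971) and *Abhd15* (0.944).

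Some of the genes overlap others in the annotation. *G0s2* overlaps *Lamb3*, *Plin4* overlaps *Hdgfl2*, and *Lipe* overlaps *4732471J01Rik*, each on the opposite strand, and *Mgll* holds several short annotated transcripts on both strands. The kit keeps the strand, but the strand setting of the count was not given in the sources used here. *Lamb3* had 7.68 ± 3.18 (SD, n = 4) normalized counts in Fnip2C/C and 17.4 ± 9.03 (SD, n = 5) in Fnip2T/T WAT, below the level of *G0s2* in each Fnip2T/T library. In Fnip2C/C WAT, the ranges of *Lamb3* (4.70 to 11.7) and *G0s2* (2.81 to 10.8) were alike, so with the strand setting unknown, reads of *Lamb3* among the few *G0s2* reads cannot be told apart. *4732471J01Rik* had 16.6 ± 4.95 (SD, n = 4) and 7.41 ± 5.19 (SD, n = 5), far below *Lipe*. *Hdgfl2* was far below *Plin4* in WAT, at 112 ± 53.4 (SD, n = 4) in Fnip2C/C and 125 ± 28.4 (SD, n = 5) in Fnip2T/T. In liver, *Hdgfl2* had 195 ± 18.7 (SD, n = 5) and 196 ± 32.6 (SD, n = 5), above every *Plin4* value there. Reads of *Hdgfl2* among the liver *Plin4* reads, including those of mouse 657, therefore cannot be told apart.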

How the data were processed

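Visceral WAT and liver RNA (500 ng and 250 ng) was sequenced as 3′ end libraries (QuantSeq FWD, NextSeq). The labels list 76 run samples, 4 per mouse, and the tables hold 1 column per mouse. Per the labels' processing notes, FastQC 0.11.9, HISAT2, SAMtools 1.12, HTSeq, DESeq2 and the build GRCm39 were used. The authors deposited 1 signal table of normalized counts per tissue, each normalized on its own, with reads divided by 1 size factor per library. Whole reads came back for 100% of values (tolerance 0.001). They are not independent molecules. The WAT table has 1 column that matches no label, and it was not used.

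Values were tested as log2(normalized count + 1) for genes with a mean of at least 10, with limma 3.58.1 (trend, robust; R 4.3.3), Benjamini-Hochberg adjustment over all genes of a tissue and a threshold of 0.05, for each tissue and as an interaction. Fold changes on this scale understate those of low genes. Single genes had exact permutation tests (Python 3, scipy). Alternatives were other pseudocounts (0.5, 10), filters (none, 50) and scalings, library weights, a term for mouse numbers, edgeR 4.0.16 and DESeq2 1.42.0 on recovered reads, each mouse left out, and, chosen after the values were seen, mice 593 and 657 left out together and a term for even and odd RNA labels in liver. Libraries of both tissues with the same number came from the same mouse. Deviations of the same mouse from its group means in the tissues had correlations across genes between -0.203 and 0.156, and the interaction was also fitted with the mouse as a replicate block. The limma fit was also run on simulated counts with 200 genes changed per tissue. That setting was unlike WAT, where 4111 genes were called, so it does not check the WAT calls.

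The genes and the gene lists were chosen with earlier results of these data known. The text names the 9 genes, *Fnip2*, up to 4 genes per pathway list with the lowest WAT p, marker lists by their sums and the 3 genes most like each of the 9. Of the last, 1 gene is not reported here.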

Additional observations from a re-analysis of the deposited data

Results flagged for a closer look

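In 3 of the 34 groups of libraries examined, 1 library stood far from the others by Dixon's test, which flags about 1 group in 20 by chance. In the livers of Fnip2C/C mice, *Mgll* was at 1818 normalized counts in mouse 592, against 1412 to 1524 in the other 4. In the same group, *Cidec* was at 9.05 in mouse 591, against 0 to 1.80. In the livers of Fnip2T/T mice, *Plin4* was at 76.8 in mouse 657, against 2.83 to 22.9.

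The genotype difference of 3 of the 7 genes tested differed between the tissues by the interaction test, beside 29.2% of all 10404 genes tested in both. WAT minus liver was -2.00 for *Pnpla2*, -3.38 for *G0s2* and -1.16 for *Lipe* on the log2 scale, and the call of *Lipe* was lost in several alternatives.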

How the results depend on the processing

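*Pnpla2*, *G0s2* and *Plin1* kept their calls in WAT in all 21 alternatives, and none of the genes was called in liver in any of 22. The 4 calls in WAT ranged from 3 to 5. With the mouse as a replicate block, 3 genes again passed the interaction, with *Pnpla2* at -2.03, *G0s2* at -3.36 and *Lipe* at -1.18, and the block changed no call among the 7 genes in the interaction. Without mice 593 and 657 together, the interaction calls fell to 1 and the other pathway genes called in WAT from 12 to 6, and *Cidec* in WAT turned to 0.029. Over all genes tested, this fit took the calls in WAT from 4111 to 2736 and those of the interaction from 3033 to 2506. Leaving out 1 mouse gave between 3013 (mouse 657) and 4261 (mouse 590) calls over all genes tested in WAT. With 1 mouse left out, the other pathway genes called in WAT ranged from 6 to 12 (7 without mouse 599, 657 or 658 and 6 without mouse 607 or 638), and signs turned within these ranges: *Cidec* in WAT -0.36 to 0.080, *Lipe* in liver -0.075 to 0.14, *Mgll* in liver -0.16 to 0.18, *Plin4* in liver -0.49 to 0.59, and in the interaction *Mgll* -0.021 to 0.41 and *Plin4* -0.95 to 0.18. Scaling to equal markers turned *Abhd5* (0.18), *Plin4* (0.38) and *Cidec* (0.52) in WAT, *Plin4* in liver (0.045) and *Abhd5* (0.25) and *Plin4* (0.34) in the interaction, ended the call of *Lipe* in WAT (-0.41, limma adjusted p = 0.349), and gave *Mgll* 0.92 and *Plin2* 1.20 in WAT, both called, and *Plin2* in place of *Lipe* among the 3 interaction calls, while the median of all genes tested moved from 0.02 to 0.71. Quantile normalization and scaling to the same total called *Abhd5* in WAT (-0.65 and -0.60, limma adjusted p = 0.0373 and 0.04). *Mgll* in liver was -0.018 with edgeR and -0.013 with DESeq2. *Plin4* in liver was 0.019 with a pseudocount of 0.5, 0.021 with quantile normalization, 0.048 with a term for mouse numbers, 0.000176 with library weights and 0.16 with a term for even and odd RNA labels, and in the interaction 0.26 with edgeR and 0.38 with DESeq2. The cause of the other changes was not tested. Read numbers were lowest for *Cidec* (0 to 10 per library) and *Plin4* (3 to 63) in liver and *G0s2* in Fnip2C/C WAT (3 to 10), where counting error is widest.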

Other observations

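Summed normalized counts of marker lists separated the genotypes in WAT without overlap in 4 of 16 lists and in liver in 0 of 16. Among single genes tested, 26.1% did not overlap in WAT and 0.248% in liver, so the 4 lists lay near the share of single genes. Beside haemoglobin, the 4 were endothelium (1266 to 2418 in Fnip2C/C and 2497 to 3820 in Fnip2T/T), B cell (308 to 546 and 632 to 986) and hepatocyte (31.6 to 130 and 153 to 269, with *Tat*, *Cyp3a11* and *Fgb* not listed). The 2 hepatocyte genes tested in WAT had opposite signs, *Alb* at -1.68 and *Apoa1* at 1.37 on the log2 scale. Of the 4 haemoglobin genes, 3 were called lower in WAT, and *Hbb-bt* was not called (-0.27, limma adjusted p = 0.414). Overlapping ranges were found for brown adipocyte (531 to 10345 and 528 to 4124), mesothelium (426 to 1184 and 259 to 1075), macrophage (2940 to 6143 and 2827 to 4578), T cell (98.4 to 187 and 100 to 175), fibroblast and progenitor (8947 to 17045 and 11271 to 13100), smooth muscle and pericyte (4409 to 10244 and 2918 to 10514), pancreas acinar (107 to 235 and 108 to 186), Kupffer cell (7.06 to 36.5 and 7.58 to 22.3), stellate cell (254 to 674 and 228 to 292) and cholangiocyte (171 to 374 and 89.3 to 742). In liver, the 8 hepatocyte genes summed to between 707460 and 905539, and the adipocyte genes *Adipoq*, *Lep* and *Retn* were not listed.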
